A study of Rattus norvegicus with 6 samples.

Results

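Cholesterol synthesis was followed through 8 genes in the vestibular sensory epithelium of the rat: the enzymes Hmgcs1, Idi1, Fdft1, Sqle, Lss, Hsd17b7 and Dhcr7, and Srebf2, the transcription factor that switches such enzymes on. They were taken by gene symbol from a table of 32883 genes. Each of the 8 symbols matched 1 row, and all 8 were among the 14352 genes tested. The libraries came from adult male Long-Evans rats. The 3 control rats drank plain water. The 3 rats of the IDPN-4wk group had 20 mM 3,3'-iminodipropionitrile (IDPN) in theirs for 4 weeks, a nitrile that damages the sensory hair cells (HCs) of the vestibular and auditory organs. The utricles and cristae of 1 rat were pooled into 1 library, so that a library is an animal and holds HCs, supporting cells, nerve endings, glia and stroma together. Libraries held from 13358678 to 18561991 counts, and the batch label was the same for all 6. The animal codes in the sample titles begin alike for the 3 IDPN-4wk rats and differently for the controls, of which 2 share a beginning. The labels do not say what it marks, and any effect of it cannot be told apart from that of the treatment. HC genes were present in every library, with a summed level of 17 of them from 3699 to 3806 CPM in control and from 2423 to 2868 CPM in IDPN-4wk libraries. CPM express the count of a gene relative to its library's total, scaled by TMM, which corrects the totals for differences in composition.

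Cells build cholesterol from acetyl-CoA in the cytosol and the endoplasmic reticulum. The early steps give mevalonate and isoprene units, the middle steps join these into squalene and close it to lanosterol, and the late steps trim lanosterol to cholesterol. When sterols in the endoplasmic reticulum run low, SREBP-2, the product of Srebf2, is carried to the Golgi by SCAP, cut free and sent to the nucleus, where it raises most enzymes of the pathway. INSIG proteins hold it back when sterols are plentiful. Cholesterol is a structural lipid of every plasma membrane and is needed in quantity for myelin.

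Of the 8 genes, Hsd17b7 fell to 41.2% of its control level and was the only one past both thresholds, which were 0.05 for the adjusted p of edgeR (Padj) and 1.5 for the fold change. Across all tested genes, 6.62% fell and 3.09% rose past the same thresholds (9.71% in either direction), so that a count of 1 in 8 was close to the background. The count of these genes that rose was 0 with edgeR, with DESeq2 and at an unadjusted p under 0.05, where 6 were lower, against 17.4% of all tested genes lower and 15.6% higher at that threshold. Srebf2, Hmgcs1, Fdft1, Sqle and Lss were at 74.7 to 82.8% of control and had a Padj under 0.05 without reaching the fold change threshold. Idi1 and Dhcr7 had log2-Fold changes of 0.09 and -0.02.

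Hsd17b7 (ENSRNOG00000002826) encodes the 3-keto reductase that, with the products of Msmo1 and Nsdhl, removes methyl groups from the sterol ring. The enzyme is also known to convert estrone to estradiol. Its level was 64.3, 62.1 and 66.7 CPM in the control libraries and 25.1, 25.1 and 29.4 CPM in the IDPN-4wk libraries. The control libraries lay close together, and so did the IDPN-4wk libraries, far below them. The mean fell from 64.4 ± 2.31 to 26.5 ± 2.51 CPM (SD, n = 3 each), with a log2-Fold change of -1.28 (SE 0.09) and an edgeR Padj of 1.92e-05. The 95% interval of the log2-Fold change ran from -1.49 to -1.07. Raw counts were from 888 to 996 in control and from 349 to 486 in IDPN-4wk libraries, so counting error was small beside the difference. With each library left out in turn, the log2-Fold change stayed between -1.37 and -1.24 and the edgeR Padj was at most 3.16e-04.

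Hsd17b7 is also in the HC panel of the study. That panel holds genes that the paper reported as lower in every comparison of treated with control animals, the present one included. The direction of its genes was thus fixed by the choice, and their falls are not independent evidence. Not all of them are listed in the paper as selective for HCs. Among the 33 panel genes matched by symbol and tested, all of which had negative log2-Fold changes, Hsd17b7 was the 18th from the lowest. Its neighbours in that order were Ccdc33 at 39.4% and Nsg2 at 46.5% of control. The summed level of the 33 genes was from 4282 to 4742 CPM in control and from 1421 to 2232 CPM in IDPN-4wk libraries. A list of HC markers shares Ocm2 with the panel and was also chosen with earlier results of these data known. In it, 16 of 17 genes were lower and 8 passed both thresholds, against 6.62% of all tested genes that fell past them. Its median log2-Fold change was -0.57, where that of all tested genes was 0.02. In bulk tissue, fewer cells of a type and less RNA per cell cannot be told apart, and the part of HCs in the fall of Hsd17b7 was not tested. Nearest profiles were sought among 12933 tested genes, with placeholder symbols such as those that begin with LOC left out. The 3 whose centred profile lay nearest to that of Hsd17b7 over the 6 libraries were Adgrl3, Morn1 and Tdrd7. Their root mean square differences from it on the log2 scale were 0.0518, 0.0628 and 0.0812. Such a profile is mostly the difference between the groups, and the log2-Fold changes of these 3 genes were -1.26, -1.33 and -1.23. A shared regulation was not tested.

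**Figure D1:**
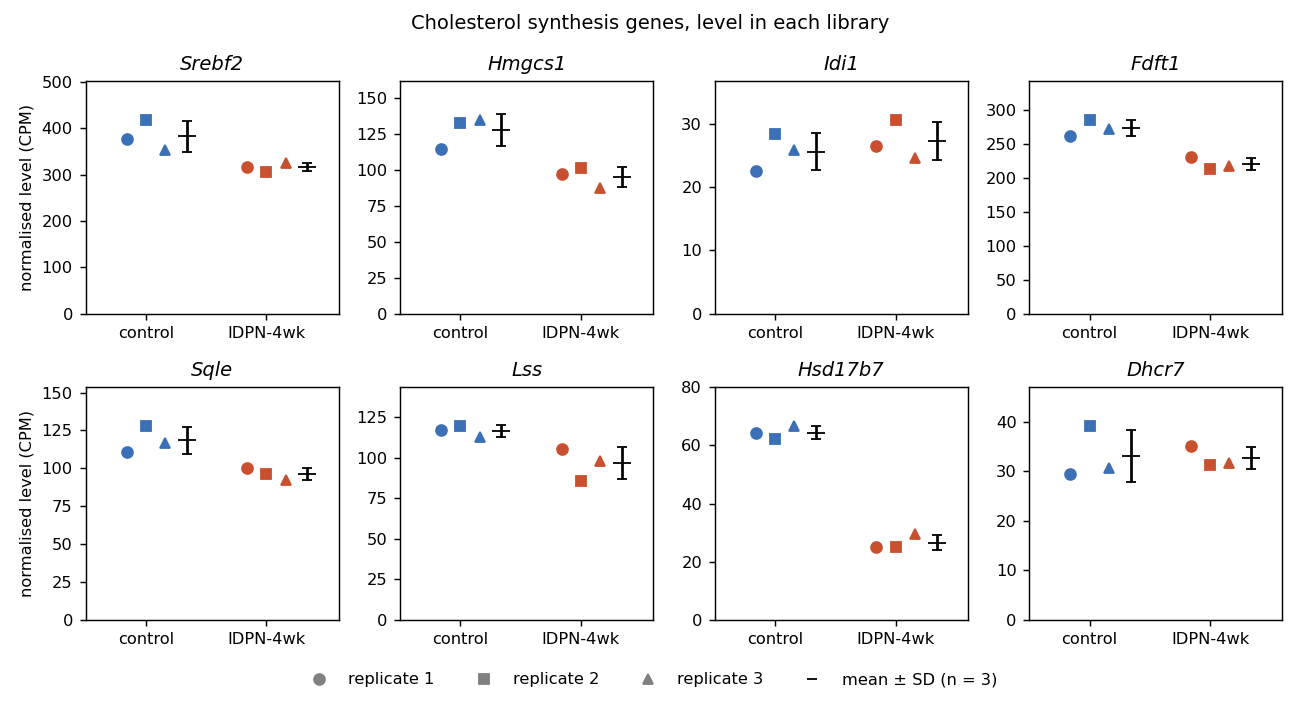
Level of each of the 8 genes in every library, in CPM on axes that start at 0. Points are single rats, with 1 shape per replicate number, which pairs nothing, and the bars at the right of each group give the mean ± SD (n = 3). Hsd17b7 fell from 64.4 to 26.5 CPM, the groups also stood apart for Srebf2, Hmgcs1, Fdft1, Sqle and Lss, and they overlapped for Idi1 and Dhcr7.

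Promoter sequences were compared because most of these genes are known as shared targets of SREBP-2, which binds DNA together with NF-Y, a factor that recognises the CCAAT box. RefSeq windows on the GRCr8 build were at hand for 6 of the 8 genes, all except Sqle and Fdft1, and ran from 250 bases before to 50 after the start site. The windows of Hsd17b7 (chr13:84722705-84723004, minus strand), Hmgcs1 (chr2:53382054-53382353, plus strand) and Dhcr7 (chr1:208444184-208444483, plus strand) are shown, being those of the gene that fell, of the gene with the next lowest log2-Fold change, and of the gene with the smallest. They are written from 5′ to 3′ along the gene, and capitals mark a CCAAT box or its complement ATTGG.
Hsd17b7: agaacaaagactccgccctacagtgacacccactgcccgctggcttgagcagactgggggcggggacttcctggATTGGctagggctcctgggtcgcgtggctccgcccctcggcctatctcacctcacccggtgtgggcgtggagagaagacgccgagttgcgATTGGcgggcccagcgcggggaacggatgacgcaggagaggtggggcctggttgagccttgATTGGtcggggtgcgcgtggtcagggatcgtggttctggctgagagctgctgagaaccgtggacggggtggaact
Hmgcs1: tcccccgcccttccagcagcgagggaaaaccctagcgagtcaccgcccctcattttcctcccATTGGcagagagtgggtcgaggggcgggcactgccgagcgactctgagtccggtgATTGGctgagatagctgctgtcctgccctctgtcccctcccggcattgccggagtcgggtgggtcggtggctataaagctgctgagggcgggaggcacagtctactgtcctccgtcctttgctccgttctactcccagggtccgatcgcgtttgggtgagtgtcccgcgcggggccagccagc
Dhcr7: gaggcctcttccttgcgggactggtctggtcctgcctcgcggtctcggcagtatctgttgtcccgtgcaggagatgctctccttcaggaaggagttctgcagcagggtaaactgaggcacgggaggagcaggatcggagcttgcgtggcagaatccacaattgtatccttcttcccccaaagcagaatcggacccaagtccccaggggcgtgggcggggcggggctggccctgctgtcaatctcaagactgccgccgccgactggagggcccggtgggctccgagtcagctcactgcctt
Hsd17b7 held 3 CCAAT boxes, which began 176, 86 and 25 bases before the start site. Hmgcs1 and Idi1 held 2 each, Lss and Srebf2 1 each and Dhcr7 0.

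The CCAAT box was thus in 5 of the 6 windows, against 37.5% of all 33469 windows and 36.7% of the 11553 windows of tested genes. Over the 16 windows available for the 21 enzymes of the pathway it was in 13. The GC box GGGCGG was also in 5 of the 6 windows, all except that of Idi1, against 33.1% of all windows and 60.3% of those of tested genes. The sterol regulatory element written as TCACNCCAC was in 0 of the 6 windows and in 1.12% of all windows, which says only that these letters were not in these stretches. All motifs were searched on both strands, and none of the 3 strings contains another. Idi1, with 2 CCAAT boxes, had a log2-Fold change of 0.09, and Cyp51, with 0, had one of -0.43. Other windows went the other way: Hsd17b7, with 3, was at -1.28, and Dhcr7 and Acat2, with 0, were at -0.02 and 0.0045. A relation between box number and change was not tested.

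Srebf2 (ENSRNOG00000007400), the regulator, was measured at 377, 419 and 353 CPM in control and at 318, 307 and 326 CPM in IDPN-4wk libraries. All IDPN-4wk libraries were below all control libraries. The means were 383 ± 33.3 and 317 ± 9.58 CPM (SD, n = 3 each), and the log2-Fold change was -0.27 (SE 0.08, edgeR Padj 0.0332). Control replicate 2 was the highest, and without it the log2-Fold change was -0.21 with an edgeR Padj of 0.112. The edgeR Padj was also above 0.05 without control replicate 1 (0.0635), IDPN-4wk replicate 1 (0.0879) or IDPN-4wk replicate 2 (0.0952).

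Hmgcs1 (ENSRNOG00000016552) encodes a cytosolic synthase early in the pathway. It was at 115, 133 and 135 CPM in control and at 97.3, 101 and 87.5 CPM in IDPN-4wk libraries. The groups did not overlap, and the IDPN-4wk mean was 74.7% of the control mean (log2-Fold change -0.42 ± 0.09 SE, edgeR Padj 0.00718). The 95% interval of the log2-Fold change, from -0.61 to -0.23, reached past the fold change threshold of 0.585 in size. The Padj stayed under 0.05 without any single library, at most 0.0364.

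Idi1 (ENSRNOG00000016690), which interconverts both isoprene units, was at 22.5, 28.4 and 25.8 CPM in control and at 26.5, 30.6 and 24.6 CPM in IDPN-4wk libraries. The groups overlapped. The log2-Fold change was 0.09 (SE 0.13, edgeR Padj 0.649), and the 95% interval of the fold change, from 0.879 to 1.297, did not reach 1.5-fold in either direction.

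Fdft1 (ENSRNOG00000021314), Sqle (ENSRNOG00000009550) and Lss (ENSRNOG00000054549) encode the consecutive enzymes from farnesyl diphosphate to lanosterol: squalene synthase, which commits isoprenoids to sterols, squalene epoxidase, a rate-limiting step, and the cyclase lanosterol synthase. Fdft1 was at 262, 286 and 273 CPM in control and at 231, 213 and 218 CPM in IDPN-4wk libraries. Sqle was at 111, 128 and 117 CPM in control and at 100.5, 96.6 and 92.3 CPM in IDPN-4wk libraries. Lss was at 117, 120 and 113 CPM in control and at 106, 85.9 and 98.0 CPM in IDPN-4wk libraries. For each of the 3 genes every IDPN-4wk library was below every control library, by a small margin for Sqle and Lss.

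The log2-Fold changes of these consecutive enzymes were alike in size, at -0.31 for Fdft1 (SE 0.07, edgeR Padj 0.0117), -0.30 for Sqle (SE 0.08, edgeR Padj 0.0223) and -0.27 for Lss (SE 0.08, edgeR Padj 0.0451). Their 95% intervals lay between -0.47 and -0.09 and did not reach 1.5-fold. Fdft1 kept a Padj under 0.05 without any single library, at most 0.0439. The edgeR Padj of Sqle was above 0.05 without control replicate 2 (0.0811), control replicate 3 (0.0586) or IDPN-4wk replicate 2 (0.0562). That of Lss was above 0.05 without control replicate 1 (0.0983), 2 (0.1195) or 3 (0.0827) and without IDPN-4wk replicate 2 (0.141) or 3 (0.0566).

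Dhcr7 (ENSRNOG00000020776) encodes the reductase that turns 7-dehydrocholesterol into cholesterol, the enzyme deficient in Smith-Lemli-Opitz syndrome. It was at 29.4, 39.1 and 30.7 CPM in control and at 35.2, 31.2 and 31.6 CPM in IDPN-4wk libraries. The IDPN-4wk libraries lay within the control range. The log2-Fold change was -0.02 (SE 0.12, edgeR Padj 0.927), and the 95% interval of the fold change was from 0.816 to 1.19. The sign was positive under library size alone (0.0889), under upper quartile scaling (0.0124) and without control replicate 2 (0.12) or IDPN-4wk replicate 2 (0.0106).

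By Padj alone, 6 of the 8 genes were lower, and 0 were higher, against 11.5% of all tested genes lower, 7.89% higher, 19.4% in either direction and, among those lower, 13.4% of the 7909 genes that averaged at least 20 CPM, as all 8 did. The groups did not overlap in the same 6 genes, against 37.8% of all tested genes and 42.3% of the more abundant ones. The median log2-Fold change of the 8 genes was -0.29, where that of all tested genes was 0.02. The 8 genes were put together with results of these libraries known. The count by Padj alone was sensitive to single libraries and to scaling. It was from 3 to 5 with a library left out, lowest when either control replicate 2 or IDPN-4wk replicate 2 was omitted. With upper quartile scaling it was 4, without Srebf2 and Lss, and with library size alone it was 2, Hmgcs1 and Hsd17b7. The share of all tested genes lower by Padj alone moved too, from 7.77 to 12.3% with a library left out. It was 10.4% with upper quartile scaling and 8.61% with library size alone. Scaling by library size alone moved the median log2-Fold change of all genes to 0.13. Relative to that median, Srebf2 and Lss were at -0.29, Hmgcs1 at -0.44 and Hsd17b7 at -1.299.

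The 8 genes were set in the whole pathway with a list of 21 enzymes from acetyl-CoA to cholesterol, 14 of them outside the 8 genes. Of the 21, 18 had negative and 3 positive log2-Fold changes, and the median was -0.18, where that of all tested genes was 0.02. With upper quartile scaling 15 were negative and the median was -0.15, and with library size alone 13 were negative and the median was -0.07. Relative to the median of all tested genes it was -0.20 under each of these scalings. Hsd17b7 alone passed both thresholds, also with DESeq2. By edgeR Padj alone 9 were lower and 0 higher, and at an unadjusted p under 0.05 the edgeR counts were 11 and 0, beside the shares of 17.4% and 15.6% given above for all tested genes. The 9 became 4 to 7 with a library left out, lowest without control replicate 2 or 3. They became 7 with upper quartile scaling and 3 with library size alone. In these settings the share of all tested genes also moved, as given above. Their summed level was 1737, 1947 and 1816 CPM in control and 1524, 1502 and 1447 CPM in IDPN-4wk libraries, so that the groups stood apart for the sum as well.

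**Figure D2:**
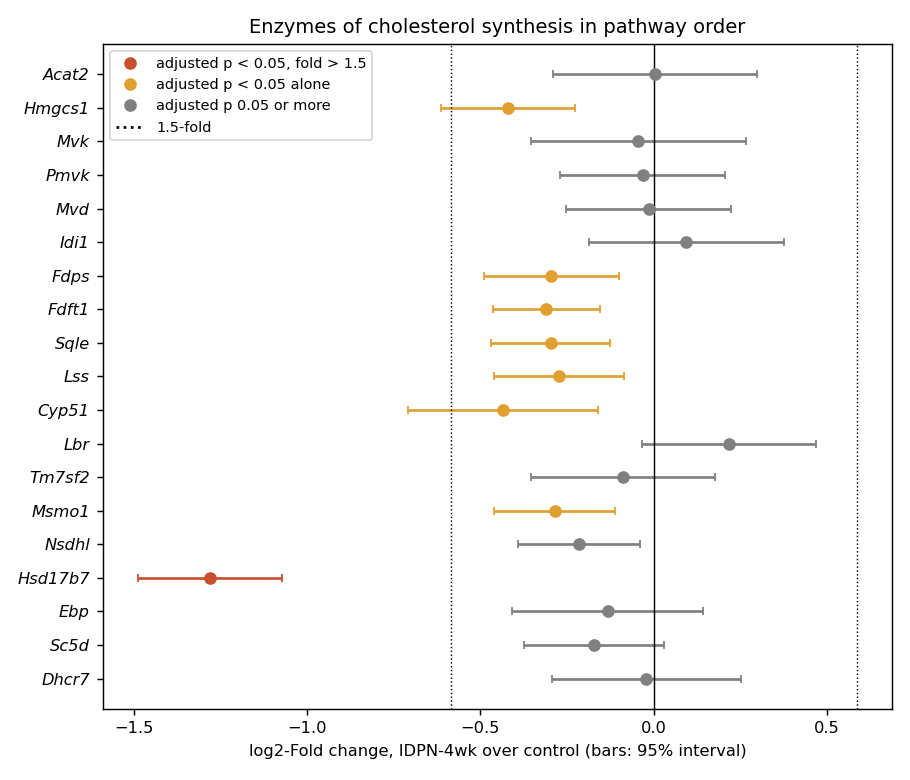
Log2-Fold change of 19 enzymes of cholesterol synthesis, from the first step at the top to the last at the bottom, with 95% intervals as bars. Hsd17b7 (-1.28) stands beyond the 1.5-fold line, 7 further enzymes have a Padj under 0.05 within it, and the enzymes from Mvk to Idi1 lie around 0.

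From Mvk, the kinase of mevalonate, to Idi1, the 4 genes Mvk, Pmvk, Mvd and Idi1 had log2-Fold changes from -0.04 to 0.09 and edgeR Padj of at least 0.649. The next 5 genes, Fdps, Fdft1, Sqle, Lss and Cyp51, which carry the chain from isoprenoids to the first demethylation of lanosterol, were all lower, with log2-Fold changes from -0.43 to -0.27 and edgeR Padj of at most 0.0451. This stretch was singled out after its values were seen, and the difference between stretches was not tested. With a library left out, the edgeR Padj of Fdps was from 0.0216 to 0.133 and under 0.05 only without IDPN-4wk replicate 2. That of Cyp51 was from 0.0246 to 0.121 and under 0.05 without control replicate 1 or IDPN-4wk replicate 1. Both were highest without control replicate 2.

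Among the late steps, Msmo1 and Nsdhl, the partners of Hsd17b7 in the removal of methyl groups, had log2-Fold changes of -0.29 (SE 0.08, edgeR Padj 0.0286) and -0.21 (SE 0.08, edgeR Padj 0.0844). The edgeR Padj of Msmo1 was above 0.05 without control replicate 2 (0.0930) or 3 (0.104), without IDPN-4wk replicate 1 (0.0800) or 2 (0.0981), and with library size alone (0.115). To set Hsd17b7 against its partners without any scaling between libraries, the counts of 2 genes were divided within each library. The ratio of Hsd17b7 to Nsdhl was 1.26, 1.15 and 1.33 in control and 0.571, 0.555 and 0.660 in IDPN-4wk libraries. The ratio of Hsd17b7 to Msmo1 was 0.397, 0.336 and 0.364 in control and 0.172, 0.184 and 0.193 in IDPN-4wk libraries. Neither ratio overlapped between the groups, and their log2 changes were -1.07 and -0.998. The fall of Hsd17b7 was thus larger than that of both partners in every IDPN-4wk library compared with every control library.

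For the early pathway, Hmgcs1 was set against Idi1 in the same way, and their ratio was 5.11, 4.69 and 5.23 in control and 3.67, 3.31 and 3.56 in IDPN-4wk libraries. The groups did not overlap here either, with a log2 change of -0.51. In each of the 3 ratios the exact permutation test, two-sided, gave p = 0.10 (0.10 after Benjamini-Hochberg adjustment over the 3), the smallest value that 3 against 3 rats allow. The 3 pairs were chosen after the levels were seen.

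**Figure D3:**
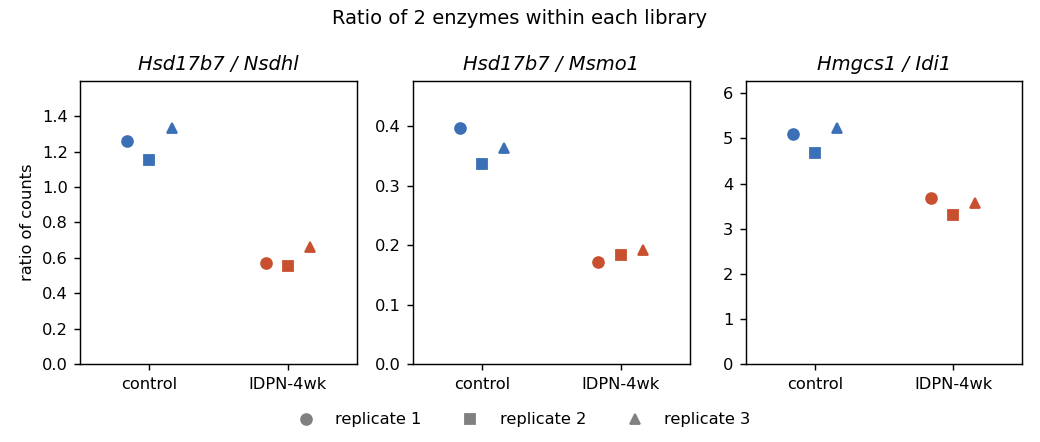
Ratio of the counts of 2 enzymes within each library, on axes that start at 0, with 1 point per rat (n = 3 per group). The 3 ratios are lower in all IDPN-4wk libraries than in all control libraries, with Hsd17b7 over Nsdhl going from 1.25 to 0.595 on average.

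Control libraries differed among themselves in a shared way. Control replicate 2 was the highest of the 3 controls in 16 of the 21 enzymes (76.2%), where it was the highest in 35.8% of all tested genes, and control replicate 1 was the highest in 0. Insig1, at 135, 176 and 148 CPM, and Scap, at 131, 163 and 129 CPM in control replicates 1, 2 and 3, had the same order of replicate 2 above the others. Hsd17b7 was an exception, being lowest in control replicate 2. In the same library the summed level of 6 endothelium markers was 613 CPM, against 472 and 442 CPM in the other controls. It was also the highest control for supporting cell markers (10790 against 9868 and 9883 CPM), for dark cell and melanocyte markers (2540 against 1971 and 2257 CPM), for the HC panel (4742 against 4282 and 4328 CPM) and, by less, for HC markers (3806 against 3708 and 3699 CPM). The sum of 12 Schwann cell and myelin markers was 9305 CPM, against 11660 and 10800 CPM. The part of these cells in the levels of the enzymes was not tested.

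Genes that set the activity of SREBP-2 were measured beside it. Of 13 genes of SREBP processing and enzyme turnover, 0 passed both thresholds with edgeR or with DESeq2, and 2 were lower and 2 higher at an unadjusted p under 0.05. By edgeR Padj alone Srebf2 was lower and Usp20, a deubiquitinase, was higher (log2-Fold change 0.26). Log2-Fold changes were -0.07 for Scap, the escort of SREBP, -0.17 for Insig1 and 0.06 for Insig2, its retention factors, and -0.11 and -0.27 for the proteases Mbtps1 and Mbtps2. Srebf1, the related factor of fatty acid synthesis, was at a log2-Fold change of -0.08 with an edgeR Padj of 0.600.

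In cholesterol uptake and trafficking, 1 of 15 genes fell past both thresholds and none rose past them with edgeR or DESeq2, while 4 were lower and 4 higher at an unadjusted p under 0.05. Their median log2-Fold change was 0.08. This list and those that follow are too short for a count of 0 or 1 in a direction to be read against the background. That background is 6.62% lower and 3.09% higher among all tested genes. The genes named are values of single genes. Vldlr, a lipoprotein receptor, was at 35.6, 37.5 and 37.9 CPM in control and at 24.4, 17.8 and 27.8 CPM in IDPN-4wk libraries (log2-Fold change -0.67, SE 0.15, edgeR Padj 0.0101). Leaving out IDPN-4wk replicate 2 (-0.50) or scaling by library size alone (-0.56) brought its fold change under the threshold, and its call was lost with glmTreat, which tests against a 1.5-fold change (Padj 1). Mylip, a ubiquitin ligase that lowers lipoprotein receptors and is a target of the oxysterol receptor LXR, was at a log2-Fold change of 0.41 with an edgeR Padj of 0.00231.

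Among 11 genes of sterol efflux and LXR signalling, 1 fell and 1 rose past both thresholds. Ch25h, the enzyme that makes 25-hydroxycholesterol and is known to be induced by interferon, rose from 6.26, 4.19 and 6.51 CPM in control to 14.7, 13.2 and 15.4 CPM in IDPN-4wk libraries (log2-Fold change 1.34, SE 0.19, edgeR Padj 8.67e-04). Rxra, the partner of LXR, fell from 19.2, 21.04 and 17.3 CPM to 6.11, 8.98 and 12.8 CPM (log2-Fold change -1.04, SE 0.22, edgeR Padj 0.00832). With glmTreat, Ch25h kept its call (Padj 0.0138) and Rxra did not (Padj 0.184). The exporters Abca1 and Abcg1, targets of LXR, had log2-Fold changes of -0.12 and -0.08.

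In the cholesterol storage list, Plin2, a coat protein of lipid droplets, rose from 32.4, 33.6 and 33.8 CPM in control to 57.2, 50.1 and 52.2 CPM in IDPN-4wk libraries (log2-Fold change 0.68, SE 0.09, edgeR Padj 4.50e-04), as 1 of 4 genes tested. It was not called with glmTreat (Padj 0.681). Of 11 genes of isoprenoid and sterol side branches, which lead to ubiquinone, dolichol and prenylated proteins, 0 passed both thresholds with edgeR or DESeq2, and 3 were lower and 2 higher at an unadjusted p under 0.05. Coq2, of ubiquinone synthesis, alone had an edgeR Padj under 0.05 (log2-Fold change -0.32). Of 14 genes of fatty acid synthesis, the branch that SREBP-1 governs, 1 fell and 1 rose. Scd, a stearoyl-CoA desaturase, fell from 250.7, 194 and 194 CPM to 101, 81.9 and 97.5 CPM (log2-Fold change -1.19, SE 0.12, edgeR Padj 8.79e-05), while Fasn, the fatty acid synthase, had a log2-Fold change of 0.04. Scd has a close paralog, Scd2, which can share reads with it. Thrsp, known for a role in lipogenesis, at 1.03, 1.33 and 1.70 CPM in control and 2.37, 4.13 and 3.60 CPM in IDPN-4wk libraries, was past both thresholds (log2-Fold change 1.32, edgeR Padj 0.0215), but not without control replicate 1 (1.16, Padj 0.0727), control replicate 2 (1.31, Padj 0.0646) or IDPN-4wk replicate 2 (1.14, Padj 0.0899). Thrsp was not called with glmTreat either (Padj 0.198), while Scd was (Padj 0.00224).

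**Figure D4:**
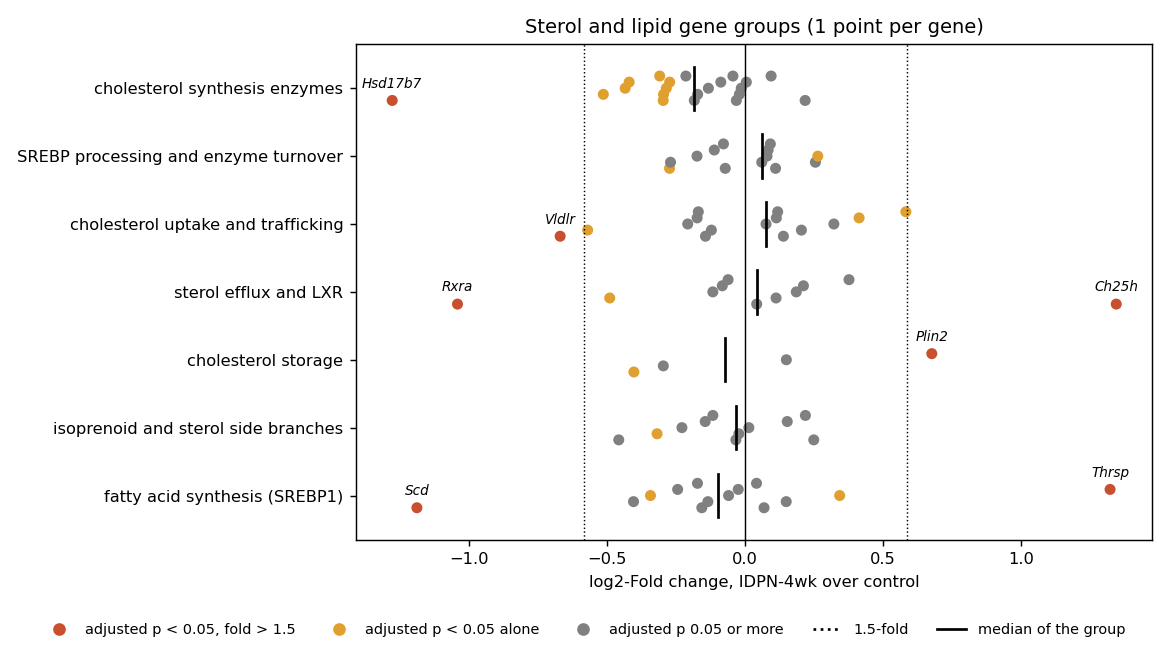
Log2-Fold change of each tested gene in 7 groups of sterol and lipid genes, with the median of each group as a black bar. The median is -0.18 for the synthesis enzymes and from -0.10 to 0.08 in the other groups, and the genes past both thresholds are named beside their points.

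Markers of the cells in the tissue moved beside these genes. Of all tested genes, 6.62% fell and 3.09% rose past both thresholds, and their median log2-Fold change was 0.02. The marker lists are short, and whether their counts differ from these shares was not tested. The summed level of Schwann cell and myelin markers was from 9305 to 11660 CPM in control and from 6303 to 9298 CPM in IDPN-4wk libraries, with 10 of 12 genes lower and 3 past both thresholds. For 12 supporting cell markers it was from 9868 to 10790 CPM in control and from 5591 to 7084 CPM in IDPN-4wk libraries, with 8 lower and 3 past both thresholds. Most of that difference was 1 gene, Otog, whose mean went from 6262 to 3199 CPM and which was singled out after its value was seen. The other 4 markers, Sox9, Sox10, Hes1 and Gfap, had log2-Fold changes from 0.19 to 0.39, and none of these had an edgeR Padj under 0.05. For 9 dark cell and melanocyte markers it was from 1971 to 2540 CPM in control and from 1416 to 1583 CPM in IDPN-4wk libraries, with 7 lower and 3 past both thresholds. For neurons, with 10 markers in the table, it was from 130 to 135 CPM in control and from 95.5 to 101 CPM in IDPN-4wk libraries, with 3 of the 9 tested past both thresholds in each direction. The sums overlapped between the groups for stroma, macrophage, endothelium and red blood cell markers, in which both thresholds were passed by 1 lower and 1 higher, 1 higher, 1 lower and 2 higher genes. No listed marker found in the table was at 0 counts in all libraries. The part of these cell types in the lower levels of Srebf2 and of the enzymes was not tested.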

How the data were processed

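RNA was measured in the pooled utricles and cristae of each rat. The authors prepared SMART-seq2 libraries, a protocol without strand information, and mapped paired-end reads to Rnor6.0 with STAR 2.5.3a. RSEM (1.3.0 in the submitters' processing notes) then gave the expected counts that were deposited. They were whole numbers, so rounding changed 0 values, and 0 columns lacked a sample.

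Groups follow the treatment given in the labels, and replicate numbers follow accession order. Genes that passed filterByExpr of edgeR 4.0.16 (R 4.3.3; minimum count 10, minimum total 15) were TMM-scaled and tested by quasi-likelihood, with Benjamini-Hochberg adjustment over all 14352. SEs are the log2-Fold change over the root of the F statistic, and intervals are 95%. The fit was tested on simulated data. DESeq2 1.42.0, other scalings and filters, glmTreat and the omission of each library were alternatives. For a gene with no counts, the limit of 3 counts lies between 0.155 and 0.216 CPM. That limit covers counting error only.

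The 8 genes, 7 lists of pathway genes and 9 of markers were chosen with earlier results of these data known. Genes named were the 8, genes of the pathway lists, and for called members the 3 nearest profiles in log2 CPM (prior count 2). Ratios and the HC panel were added after values were seen. Mlxipl, Ocm, Pecam1, Dct, Hba-a1, Hbb-b1 and Vsig10l2 were among the listed symbols that matched none, and Soat2 and Stmn2 did not pass the filter. Some lists share genes. Some genes of the lists enter the counts, medians and sums but are not reported here by name. On GRCr8, Idi1 overlaps Wdr37, and Hmgcs1, Fdft1 and Srebf2 overlap LOC102547360, LOC134482130 and Mir33, whose reads strand could not separate. Promoters are from RefSeq on GRCr8, another build than that counted.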

Additional observations from a re-analysis of the deposited data

How the results depend on the processing

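The call of Hsd17b7, and with it the count of 1 of the 8 genes and 1 of the 21 enzymes past both thresholds, was the same under DESeq2 size factors, upper quartile scaling, library size alone, no filter, a mean count filter of 50, DESeq2, glmTreat against the fold change and in the 6 fits that left out a library. With Padj alone the counts were 6 of the 8 genes, 9 of the 21 enzymes and 2778 of all genes, in place of 1394, since the fold change was not asked for. glmTreat called 453 of all genes. With library size alone the split of all called genes was 780 lower and 762 higher, in place of 950 and 444. Genes with values near 0 changed sign: Dhcr7 was at 0.0124 with upper quartile scaling and at 0.0889 with library size alone, and with a library left out its log2-Fold change was from -0.10 to 0.12 and that of Idi1 from -0.0014 to 0.18. Differences under 1.5-fold rest on 3 rats a group, and the low counts of Thrsp limit its value. No paired analysis was possible because the labels give no replicate numbers.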
